A study of Mus musculus with 6 samples.

Results

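Complex I of the respiratory chain was examined through 46 listed nuclear genes, 35 for subunits and 11 for assembly factors, matched by symbol to the deposited gene table. All 46 were among its 55471 genes and all 46 passed the filter on low counts, which kept 15454 genes. The samples were untreated cultures of 10T1/2, a mouse embryonic fibroblast line grown in DMEM with serum. There were 3 wild-type (WT) libraries and 3 libraries with the genotype Ranbp2 KO, a CRISPR/Cas9 knockout of a nuclear pore protein gene made in the same study. The labels do not say how many clones the knockout cells came from, and nothing in them says how the replicate cultures were separated, so p-values reflect only how far these libraries vary. In the KO-labelled libraries 17 of the 46 genes rose and 1, Ndufs4, fell, with a median log2 difference of 0.17 over the 46; of all 15454 genes 17.6% were called higher and 21.3% lower. Of the genes that rose 13 lay on the 6 chromosomes whose other genes had a median log2 difference above 0.1. There 31.1% of the other genes were called higher. Relative to the median of their chromosome 6 of the 46 were called higher and 0 lower, with a median of 0.16. Of all genes 14.0% and 19.0% were called in that fit.

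Complex I oxidises NADH from the matrix, passes the electrons along iron-sulfur clusters to ubiquinone and pumps protons across the inner membrane. It is L-shaped: a peripheral arm in the matrix carries the NADH site and the clusters, and a membrane arm carries the proton pumps. The core subunits of the membrane arm are encoded by mitochondrial DNA, whereas those of the peripheral arm and all accessory subunits come from the nucleus. Assembly factors join the modules and are not part of the finished enzyme.

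Library totals ran from 32072817 to 46321967 expected counts, estimates that share reads matching several genes, and the 46 genes held from 57 to 5632 counts in a library. The level of Ranbp2 did not fall in the group named for its knockout: it averaged 292 ± 2.67 CPM (reads of a gene scaled to library size) there and 240 ± 17.2 CPM in WT (SD, n = 3 each), a log2 difference of 0.28 (SE 0.07, edgeR adjusted p = 0.012). The position of the edit is not given in the labels, so a count over the whole gene does not test the edit, and the group is called KO-labelled here. All 8 fibroblast markers passed the filter, and their summed level was 26800 to 33700 CPM in KO-labelled and 21300 to 24700 CPM in WT libraries. Fn1, the highest of them, averaged 14500 CPM in KO-labelled and 5860 CPM in WT libraries. The sum therefore does not show that the other fibroblast markers were higher. Of 6 epithelial markers 1 passed the filter, and their sum was 6.08 to 9.0 CPM in KO-labelled against 2.04 to 2.87 CPM in WT libraries. Most of that sum was Cdh1, at a mean of 7.46 CPM in KO-labelled and 2.22 CPM in WT libraries. The 6 macrophage markers, with Adgre1 at 0, summed to 2.43 to 3.6 against 2.04 to 2.61 CPM, and the 5 endothelial markers to 20.8 to 24.7 against 35.3 to 39.5 CPM. Most of the endothelial sum was Tek, at a mean of 21.9 CPM in KO-labelled and 37.0 CPM in WT libraries. The 5 muscle markers summed to at most 0.16 CPM in any library, with Myod1 and Myog at 0. The part of these marker differences in the complex I results was not tested. In bulk RNA, more cells of a type and more RNA per cell cannot be told apart.

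Per length of transcript, the subunit genes were expressed far above the assembly factors. In WT cells the 35 subunits ran from 9.22 (Ndufb2) to 72.8 (Ndufa8) CPM per kilobase with a median of 46.2, and the 11 assembly factors from 1.79 (Ndufaf3) to 19.2 (Ndufaf2) with a median of 8.99. The ranges overlapped through 4 subunits, Ndufab1, Ndufb2, Ndufb4 and Ndufc1, which lay below the highest assembly factor. In KO-labelled libraries the medians were 52.9 CPM per kilobase for subunits and 9.55 for assembly factors. Among core subunits Ndufv2 was highest per length in WT, at 52.3 ± 7.06 CPM per kilobase (SD, n = 3), and among accessory subunits of the peripheral arm Ndufa7, at 63.4 ± 5.46 (SD, n = 3). Among accessory subunits of the membrane arm Ndufa8 led in WT and Ndufb10 in KO-labelled libraries, at 83.7 ± 1.69 CPM per kilobase (SD, n = 3). Lengths are medians over annotated coding transcripts. With the merged exons of a gene as its length the WT medians were 24.9 for subunits and 4.7 for assembly factors, and 7 subunits lay below the highest assembly factor. The leaders then changed to Ndufa2 among accessory subunits of the peripheral arm (49.1 CPM per kilobase in WT), to Timmdc1 among assembly factors in WT and to Ndufa8 among accessory subunits of the membrane arm in KO-labelled libraries (70.4).

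Promoter sequence was available for 41 of the genes in 43 RefSeq windows (GRCm38.p6, 250 bases before to 50 after a transcript start, 300 bases in all). These windows were searched on both strands for 4 elements bound by known regulators of respiratory genes. The NRF1 core GCGCATGCG stood in 9.3% of the members' windows, 1.75% of all RefSeq windows and 3.39% of the windows of tested genes. The 4 genes that hold it are shown with the element in capitals, 5′ to 3′ along the gene's strand.
Ndufa11: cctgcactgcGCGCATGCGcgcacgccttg
Ndufaf4: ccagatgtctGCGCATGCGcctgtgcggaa
Ndufaf5: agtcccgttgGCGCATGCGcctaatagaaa
Ndufa8: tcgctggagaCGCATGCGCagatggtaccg
They lie at chr17:56717692-56717721 (plus strand), chr4:24897960-24897989 (plus), chr2:140170652-140170681 (plus) and chr2:36049328-36049357 (minus). In Ndufa8 the core reads on the other strand, and in the other 3 it reads on both because the letters nearly mirror themselves. Ndufa11 and Ndufaf4 rose in the KO-labelled libraries, while Ndufaf5 and Ndufa8 did not pass the test.

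The YY1 element AAGATGGCG stood in 14.0% of the members' windows, 1.4% of all windows and 2.84% of those of tested genes. All 6 genes that hold it are shown, because in each the ATG inside the element is the annotated start codon of the protein.
Ndufa9: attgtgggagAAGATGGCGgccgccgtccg
Ndufs4: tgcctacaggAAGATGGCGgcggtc
Ndufs6: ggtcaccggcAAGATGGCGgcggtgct
Ndufs7: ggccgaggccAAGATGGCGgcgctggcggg
Ndufc1: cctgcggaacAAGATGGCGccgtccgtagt
Tmem126b: gtgaggcgctAAGATGGCGgcgtcccagcg
Their places are chr6:126849096-126849125 (minus), chr13:114388045-114388069 (minus), chr13:73328433-73328459 (minus), chr10:80249463-80249492 (plus), chr3:51408914-51408943 (minus) and chr7:90475959-90475988 (minus). Of the 6, Ndufa9 rose, Ndufs4 fell and the other 4 did not pass the test.

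The ETS core CCGGAAG, bound by GABPA, stood in 16.3% of the members' windows and 16.8% of those of tested genes, with 8.86% of all windows. It was found in 7 genes: Ndufs3, Ndufs8, Ndufb6, Ndufb7, Ndufaf1, Ecsit and Timmdc1. Ndufaf1 is shown because it was the member highest above its chromosome, described with the chromosomes.
Ndufaf1: cgggaccacaaCCGGAAGcgtggcgaaccg
It lies at chr2:119662834-119662863 (minus strand). The element TCAAGGTCA of the estrogen-related receptors was in 0 of the members' windows and in 0.247% of those of tested genes. No gene held 2 of the 4 elements, so none overlapped another. A match describes the sequence and is not a measured binding site.

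The test was edgeR's quasi-likelihood F over all 15454 genes, and a gene was called changed at a Benjamini-Hochberg adjusted p below 0.05. Of the 46 genes 17 were higher and 1 was lower in KO-labelled libraries, and 28 were not called. The shares over all genes tested were 17.6% and 21.3%. The member with the largest positive log2 difference was Ndufaf6, at 0.49, and 35 of the 46 differences were positive, beside a median of 0.01 over all genes. For 19 genes the lowest KO-labelled value exceeded the highest WT value, where 24.6% of all genes did so, and for 4 the order was the opposite, where 26.8% did so. The groups overlapped for the remaining 23 genes. By role, 2 of 6 core subunits, 4 of 9 accessory subunits of the peripheral arm, 7 of 20 of the membrane arm and 4 of 11 assembly factors rose. The count of 17 was 10 without KO-labelled library 2 and 9 without KO-labelled library 3, and the single lower call, Ndufs4, was lost without WT library 2 or 3; without WT library 3 Ndufaf3 was called lower in its place.

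**Figure D1:**
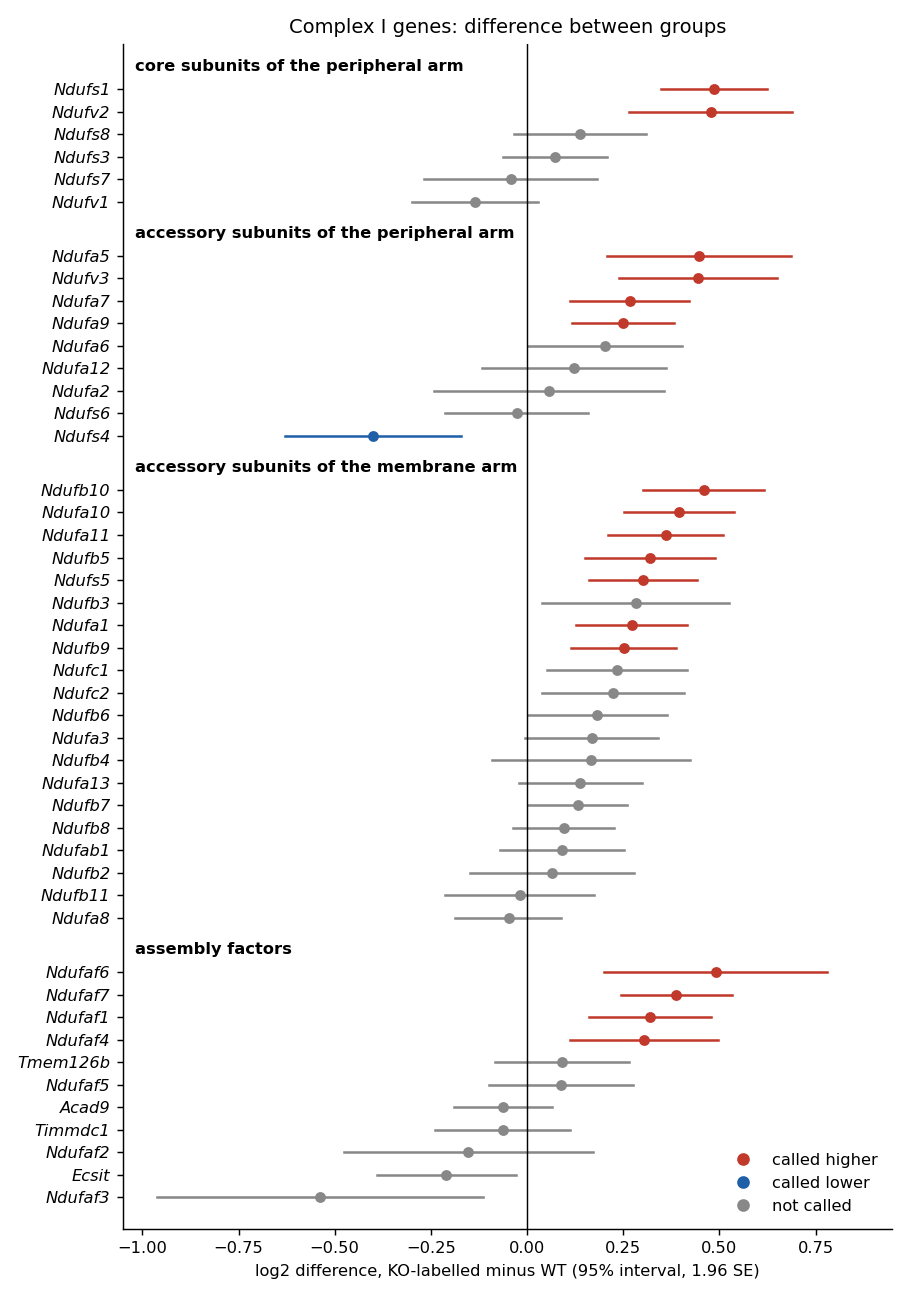
Log2 difference between KO-labelled and WT libraries (horizontal axis) of each of the 46 genes, grouped by role, with 95% intervals from the SE. Red marks the 17 genes called higher and blue the 1 called lower; 35 points lie right of 0.

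Summed over the 46 genes, the level was 1730, 1903 and 1836 CPM in KO-labelled libraries 1 to 3 and 1549, 1605 and 1626 CPM in WT libraries 1 to 3. The groups did not overlap, and the KO-labelled mean was 14.5% higher. The sum over the core subunits was 18.5% higher, over the accessory subunits of the peripheral arm 10.5%, over those of the membrane arm 16.0% and over the assembly factors 7.7%. For the assembly factors the groups overlapped, since WT library 3 lay above KO-labelled libraries 1 and 3. The core sum rose mostly through Ndufs1 (mean 138.9 CPM in KO-labelled, 99.26 CPM in WT libraries) and Ndufv2 (95.56 and 68.63 CPM). The median log2 difference was 0.11 for core subunits, 0.2 for the accessory subunits of either arm and 0.09 for assembly factors. The sums therefore do not rank the roles. KO-labelled library 1 was the lowest of its group for 33 of the 46 genes, and KO-labelled library 2 was the highest for 30. Over all genes tested KO-labelled library 2 was the highest of its group for 32.4%. KO-labelled library 1 was the highest for 5 of the 46 genes and for 37.2% of all genes tested.

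Among the core subunits, Ndufs1 and Ndufv2 rose. Ndufs1, the largest subunit and the carrier of several iron-sulfur clusters (ENSMUSG00000025968, chromosome 1, 63143596 to 63176833), stood at 147, 136.5 and 133.2 CPM in KO-labelled libraries and 94.5, 98.3 and 105.1 CPM in WT libraries. Every KO-labelled value was above every WT value, with a log2 difference of 0.48 (SE 0.07, adjusted p = 0.000513). Ndufv2, an iron-sulfur protein of the NADH-oxidising module (ENSMUSG00000024099, chromosome 17, 66078638 to 66101559), stood at 85.2, 105.1 and 96.4 CPM against 62.3, 64.4 and 79.3 CPM. WT library 3 was the highest of its group and still below the lowest KO-labelled library, and the log2 difference was 0.48 (SE 0.11, adjusted p = 0.00666). The other 4 were not called, with adjusted p from 0.228 to 0.8. Ndufv1, which binds NADH and the flavin, differed by -0.14, Ndufs7 and Ndufs8, which carry the clusters nearest ubiquinone, by -0.04 and 0.14, and Ndufs3, of the ubiquinone module, by 0.07. The 95% interval of Ndufs3 ran from -0.06 to 0.21 and that of Ndufs7 from -0.27 to 0.18. Ndufs8 was called without KO-labelled library 1, with adjusted p from 0.0342 to 0.569 over 12 alternatives without a correction for position.

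Of the accessory subunits of the peripheral arm, which stabilise it around the core, 4 rose and 1 fell. Ndufv3, a small subunit of the NADH-oxidising module (ENSMUSG00000024038, chromosome 17, 31520115 to 31531331), stood at 36.3, 47.9 and 42.4 CPM in KO-labelled libraries and 29.9, 29.6 and 33.6 CPM in WT. The groups did not overlap, KO-labelled library 2 was the highest, and the log2 difference was 0.44 (SE 0.10, adjusted p = 0.00812). Ndufa5, of the ubiquinone module (ENSMUSG00000023089, chromosome 6, 24518666 to 24528013), stood at 26.38, 36.39 and 33.94 CPM against 21.68, 22.90 and 26.35 CPM. KO-labelled library 1 and WT library 3 were nearly level, and the log2 difference was 0.45 (SE 0.12, adjusted p = 0.0168). Ndufa9, a nucleotide-binding subunit where the arms meet (ENSMUSG00000000399, chromosome 6, 126821721 to 126849136), stood at 74.2, 76.2 and 74.1 CPM against 59.3, 63.5 and 66 CPM. The KO-labelled values were close together and all above WT, with a log2 difference of 0.25 (SE 0.07, adjusted p = 0.016). Ndufa7, also of the ubiquinone module (ENSMUSG00000041881, chromosome 17, 33824572 to 33838317), stood at 39.3, 40.7 and 41.0 CPM against 33.7, 36.3 and 30.5 CPM. Its groups did not overlap either, and the log2 difference was 0.27 (SE 0.08, adjusted p = 0.0237).

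Ndufs4, whose product anchors the NADH-oxidising module and whose loss in mice is a model of Leigh syndrome, was the member that fell (ENSMUSG00000021764, chromosome 13, 114287795 to 114388258). It stood at 33.1, 45.3 and 42.4 CPM in KO-labelled libraries and 48.7, 53.3 and 57.5 CPM in WT. All KO-labelled values were below all WT values, with library 1 the lowest, and the log2 difference was -0.40 (SE 0.12, adjusted p = 0.0221). Ndufa6, Ndufa12, Ndufa2 and Ndufs6 were not called, with log2 differences from -0.03 (Ndufs6) to 0.20 (Ndufa6) and adjusted p from 0.146 to 0.847; Ndufa6 was called without KO-labelled library 1 (0.0498 to 0.453 over the alternatives). The call of Ndufs4 was lost without WT library 2 or 3, with adjusted p from 1.53e-05 to 0.0621 over the same 12 alternatives. Over these alternatives Ndufa5 was lost without KO-labelled library 2 or 3 or WT library 1 or 2 (9.76e-05 to 0.0733). Ndufa7 was lost without KO-labelled library 2 or 3 (0.0133 to 0.0759). Ndufa9 was lost without KO-labelled library 2 or 3, without WT library 2 and with no filter on low counts (0.00592 to 0.073).

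Among the 20 accessory subunits of the membrane arm 7 rose, and Ndufb10 and Ndufa10 had the smallest adjusted p. Ndufb10, which faces the intermembrane space (ENSMUSG00000040048, chromosome 17, 24722060 to 24724478), stood at 62.7, 60.7 and 60.4 CPM in KO-labelled libraries and 41.4, 43.3 and 49.0 CPM in WT. The groups were well apart, with a log2 difference of 0.46 (SE 0.08, adjusted p = 0.00155). Ndufa10, related to nucleoside kinases (ENSMUSG00000026260, chromosome 1, 92439010 to 92473860), stood at 121.9, 125.3 and 111.4 CPM against 88.2, 87.6 and 96.7 CPM. KO-labelled library 3 was the lowest of its group and above every WT library, and the log2 difference was 0.40 (SE 0.07, adjusted p = 0.00217). Ndufa11, a membrane protein of the Tim17 family (ENSMUSG00000002379, chromosome 17, 56717767 to 56722141), stood at 34.8, 34.1 and 33.3 CPM against 27.0, 28.4 and 24.3 CPM. Again no values overlapped, and the log2 difference was 0.36 (SE 0.08, adjusted p = 0.00458). Ndufs5, another subunit of the intermembrane space side (ENSMUSG00000028648, chromosome 4, 123712710 to 123718202), stood at 45.3, 48.9 and 45.7 CPM against 37.6, 39.8 and 36.1 CPM. The spread within each group was small, and the log2 difference was 0.30 (SE 0.07, adjusted p = 0.0086).

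Ndufb5, of the distal membrane arm (ENSMUSG00000027673, chromosome 3, 32736990 to 32751566), stood at 32.4, 38.5 and 37.3 CPM in KO-labelled libraries and 27.0, 29.7 and 30.03 CPM in WT. Library 1 was the lowest in both groups, and the log2 difference was 0.32 (SE 0.09, adjusted p = 0.0151). Ndufa1, an X-linked subunit needed early in assembly (ENSMUSG00000016427, chromosome X, 37187588 to 37191163), stood at 20.9, 23.5 and 22.6 CPM against 17.97, 18.5 and 19.0 CPM. The groups did not overlap, with a log2 difference of 0.27 (SE 0.07, adjusted p = 0.0164). Ndufb9, which binds the acyl carrier protein at the far end of the arm (ENSMUSG00000022354, chromosome 15, 58933756 to 58939488), stood at 55.4, 58.7 and 58.0 CPM against 46, 50.2 and 48.4 CPM. Its values were also apart, with a log2 difference of 0.25 (SE 0.07, adjusted p = 0.0179). Without KO-labelled library 2, or without library 3, the calls of these 3 genes were lost. Ndufa1 was also lost without WT library 2 and, like Ndufb9, with no filter, and over 12 alternatives the largest adjusted p were 0.0687 for Ndufb5, 0.0755 for Ndufa1 and 0.0748 for Ndufb9.

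The other 13 membrane-arm subunits were not called, with adjusted p from 0.0706 to 0.896. The largest differences among them were 0.28 for Ndufb3, 0.23 for Ndufc1, 0.22 for Ndufc2 and 0.18 for Ndufb6. Without KO-labelled library 1, the lowest of its group for both, Ndufb3 and Ndufc2 were called (adjusted p from 0.0127 to 0.285 and from 0.0113 to 0.261 over 12 alternatives). Ndufb3 was also called with no filter on low counts, Ndufc2 with library size alone and Ndufc1, narrowly, with a filter at 1 CPM (adjusted p = 0.0496; up to 0.189 over the alternatives). For Ndufc1 and Ndufb7 (0.13) the groups did not overlap. Ndufa3, Ndufb4, Ndufa13, Ndufb8, Ndufab1 and Ndufb2 lay between 0.06 and 0.17, and Ndufb11 and Ndufa8 were at -0.02 and -0.05. Ndufa8, with the highest WT level per length, stood at 57.2, 64.5 and 60.1 CPM in KO-labelled libraries and 62.6, 63.6 and 61.8 CPM in WT. Its groups overlapped, and the 95% interval of its log2 difference ran from -0.19 to 0.09. Ndufb4 is uncertain because a processed pseudogene, Ndufb4c, was given 2819 counts in all in KO-labelled and 3205 in WT libraries, and reads may have been shared between them. Ndufb9, which was called, shares 19.5% of its exon bases with Gm49356 on the same strand. Ndufb6 shares 39.0% of its exon bases with Smim27 and Ndufa13 overlaps Tssk6, both on the opposite strand. Ndufb5, also called, shares 12.3% with Mrpl47 and Ndufb11 shares 12.9% with Rbm10, again on the opposite strand. Further members overlap other genes as well. The strand setting of the counting is not given in the sources used here, so reads of such pairs cannot be told apart.

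Of the 11 assembly factors 4 rose. Ndufaf7, a methyltransferase that modifies a core subunit (ENSMUSG00000024082, chromosome 17, 78937136 to 78948052), stood at 20.5, 21.1 and 21.7 CPM in KO-labelled libraries and 15.6, 15.8 and 17.1 CPM in WT. Its groups lay apart with little spread, and the log2 difference was 0.39 (SE 0.07, adjusted p = 0.00256). Ndufaf1, of the complex that builds the first part of the membrane arm (ENSMUSG00000027305, chromosome 2, 119655446 to 119662827), stood at 19.5, 20.1 and 20.2 CPM against 14.6, 16.3 and 17.1 CPM. WT library 1 was the lowest and no values overlapped, with a log2 difference of 0.32 (SE 0.08, adjusted p = 0.0119). Ndufaf6, needed early in assembly (ENSMUSG00000050323, chromosome 4, 11051045 to 11076205), stood at 6.42, 5.49 and 6.32 CPM against 3.64, 4.37 and 4.97 CPM. The groups did not overlap at this low level, and the log2 difference was 0.49 (SE 0.15, adjusted p = 0.026). Ndufaf4, a partner of Ndufaf3 (ENSMUSG00000028261, chromosome 4, 24898083 to 24905001), stood at 44.9, 45.8 and 43.0 CPM against 30.9, 37.0 and 40.5 CPM. WT values were spread widely below the KO-labelled ones, and the log2 difference was 0.30 (SE 0.10, adjusted p = 0.0343).

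Over 12 alternatives the call of Ndufaf4 was lost in the fits without KO-labelled library 1, 2 or 3 and without WT library 1 or 2 (adjusted p from 0.0071 to 0.108). That of Ndufaf6 was lost without KO-labelled library 1 or 3 or WT library 1 or 2 (0.0123 to 0.0772). Ndufaf3 had the most negative log2 difference of the 46, at -0.54 (SE 0.22, adjusted p = 0.0754). It stood at 1.49, 2.05 and 1.95 CPM in KO-labelled libraries and 3.18, 2.70 and 2.09 CPM in WT, so that all KO-labelled values were lower but it was not called; it was called without WT library 3 (adjusted p = 0.0296) and, narrowly, with no filter on low counts (0.0296 to 0.228 over 12 alternatives). Ndufaf3 shares 2.6% of its exon bases with Impdh2 on the opposite strand. Impdh2 held 4583, 5316 and 4016 counts in KO-labelled libraries and 7386, 7547 and 6827 in WT. Whether reads of Impdh2 entered the low count of Ndufaf3 was not tested, so its difference is uncertain. Ndufaf1 works with Ecsit, Acad9, Timmdc1 and Tmem126b, none of which was called. Their log2 differences were -0.21, -0.06, -0.06 and 0.09, with the groups apart for Ecsit and Acad9, both lower in KO-labelled libraries. Ndufaf5, which modifies Ndufs7, and Ndufaf2, a paralogue of Ndufa12, differed by 0.09 and -0.15 with adjusted p of 0.497 and 0.498. Ndufaf2 stood at 11.1, 11.3 and 9.61 CPM against 9.35, 11.01 and 15.2 CPM, with WT library 3 apart from the rest. It shares 65.6% of its exon bases with B230220B15Rik on the opposite strand.

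**Figure D2:**
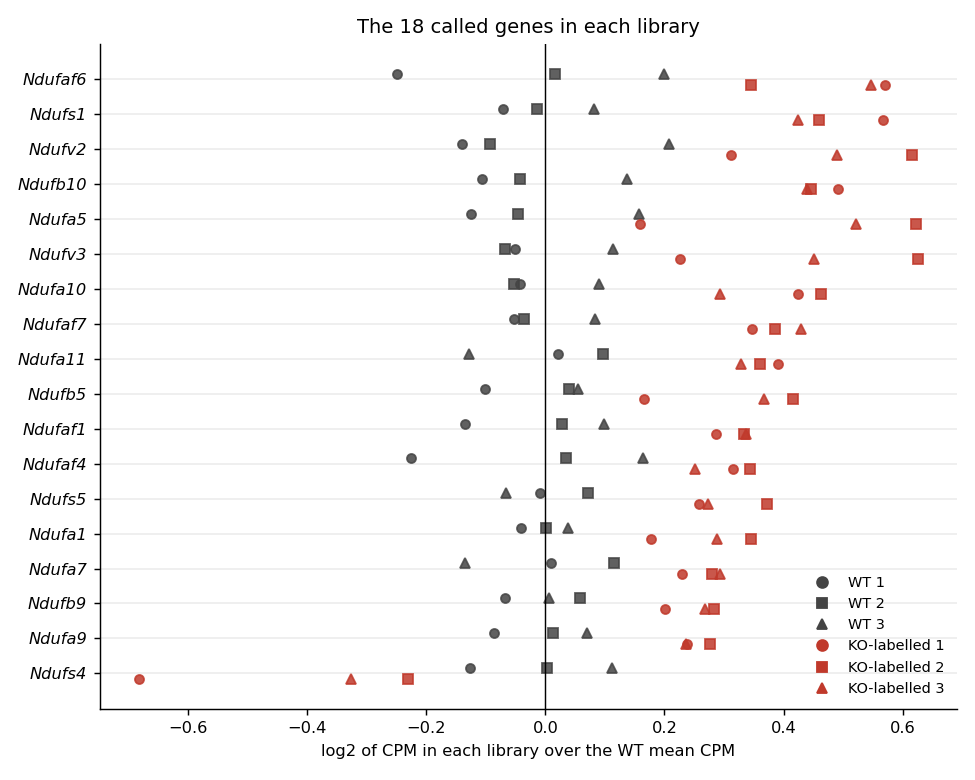
Level in each library of the 18 called genes, as log2 of its CPM over the WT mean (horizontal axis); WT libraries are grey and KO-labelled libraries red, with a marker shape for each replicate number. Red and grey points of a gene do not overlap, and for Ndufa5 KO-labelled library 1 (26.38 CPM) and WT library 3 (26.35 CPM) nearly touch.

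The 46 genes lie on 16 chromosomes, and their differences followed those of the other genes on them. The median log2 difference of the other tested genes was highest on chromosome 1 (0.29) and chromosome 17 (0.27), among chromosomes with members, and lowest on 13 (-0.28), 19 (-0.19) and 9 (-0.17). All 6 members on chromosome 17 rose, although they are spread from Ndufb10 at 24722060 to Ndufaf7 at 78948052. On chromosome 1 Ndufs1 and Ndufa10 rose and Ndufb3 was at 0.28. Chromosome 4 held 3 more of the genes that rose (Ndufs5, Ndufaf4 and Ndufaf6) and chromosome 6 held 2 (Ndufa5 and Ndufa9). Chromosomes 1, 4, 6 and 17 are among the 6 with a median above 0.1, where 31.1% of the other genes were called higher. On chromosome 13 all 3 members were at or below -0.03, among them Ndufs4.

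Of the 17 genes that rose 13 lay on the 6 chromosomes with a median above 0.1, which held 17 members. On those chromosomes 31.1% of the other genes were called higher. The 10 chromosomes with medians from -0.1 to 0.1 held 17 members, of which 3 rose (Ndufb5, Ndufb9 and Ndufa1), beside 13.7% of the other genes. The 4 chromosomes with medians below -0.1 held 12 members, of which 1 rose (Ndufaf1) and 1 fell (Ndufs4), beside 7.89% and 34.3% of the other genes. Across the 46 genes the log2 difference and the median of the chromosome had a Pearson correlation of 0.75 and a Spearman correlation of 0.75. With the median of the genes within 5 Mb in its place they were 0.79 and 0.78. These describe 46 genes of the same 6 libraries, and genes of a chromosome share its median.

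**Figure D3:**
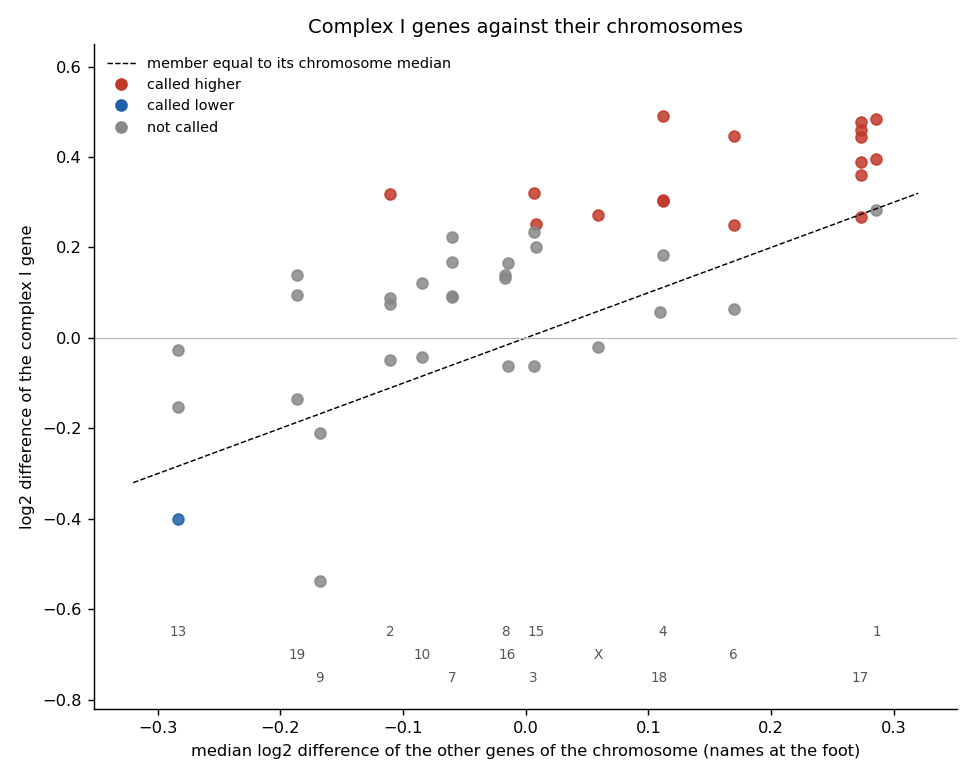
Log2 difference of each of the 46 genes (vertical axis) against the median log2 difference of the other tested genes of its chromosome (horizontal axis, chromosome names at the foot). Points climb from left to right, and 36 of 46 lie above the dashed line of equality.

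The fit was repeated with the chromosome's median as an offset, so that each gene was compared with the other genes of its chromosome. Then 6 members were higher and 0 lower, where 14.0% and 19.0% of all genes were called, and 36 of the 46 differences were positive with a median of 0.16. The SD of the 46 differences was 0.23 without the offset and 0.15 with it. Of the 18 earlier calls 3 held, those of Ndufaf1 (0.43, adjusted p = 0.00288), Ndufb5 (0.31, adjusted p = 0.0191) and Ndufb9 (0.24, adjusted p = 0.0237). The other 3 had not been called before: Ndufb8 (0.28, adjusted p = 0.00958), Ndufs8 (0.33, adjusted p = 0.0179) and Ndufc2 (0.28, adjusted p = 0.0437). On chromosome 17 the differences left after the offset ran from -0.01 for Ndufa7 to 0.20 for Ndufv2, and Ndufs1 on chromosome 1 was at 0.20 (adjusted p = 0.0552). Ndufs4 was at -0.12 (adjusted p = 0.48).

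The count of 6 varied with the setting: it ran from 2 to 12 as each library was left out, with 2 calls without KO-labelled library 2 or 3, 3 without WT library 2, 11 without KO-labelled library 1 and 12 without WT library 3. It was 2 with no filter on low counts and 13 with a filter at 1 CPM. With the median of the genes within 5 Mb as the offset, a setting chosen after seeing the data, 6 members were higher and 0 lower, where 13.6% and 18.3% of all genes were called. Ndufaf1, Ndufb8 and Ndufs8 were among these 6 too, and Ndufa5, Ndufs6 and Ndufa3 stood in place of Ndufb5, Ndufb9 and Ndufc2. The median over the 46 was then 0.12. Both offsets treat the median as known, so its own error is not in these p-values.

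The genes around complex I were counted in the fit without an offset, where 17.6% of all genes tested were called higher and 21.3% lower. Of the 7 mitochondrially encoded core subunits of the membrane arm mt-Nd5 (0.60, adjusted p = 0.0196) and mt-Nd6 (0.55, adjusted p = 0.0314) rose, and the list's median was 0.55. mt-Nd5 stood at 4073, 4901 and 4760 CPM in KO-labelled libraries and 2395, 2782 and 3881 CPM in WT, with WT library 3 nearest the KO-labelled ones. For mt-Nd6 the groups overlapped, since WT library 3 (1387 CPM) lay above KO-labelled library 1 (1380 CPM). The other 5 were not called: mt-Nd3 at 0.72, mt-Nd4l at 0.58, mt-Nd4 at 0.49, mt-Nd2 at 0.43 and mt-Nd1 at 0.06. Their groups overlapped too. All 7 are uncertain because near-identical copies in the nuclear genome can share their reads, and mt-Nd6 lies on the strand opposite to its neighbours. The calls of mt-Nd5 and mt-Nd6 were lost without KO-labelled library 2 or 3 or WT library 1 or 2, with adjusted p up to 0.0778 and 0.121, and that of mt-Nd6 also with DESeq2's Wald test. mt-Nd4 and mt-Nd4l were called without KO-labelled library 1 or WT library 3, mt-Nd3 without KO-labelled library 1 or WT library 2 and mt-Nd2 without WT library 3, and all 4 with no filter on low counts. Relative to the other mitochondrial genes none of the 7 was called. Of 11 other complex I assembly genes 3 rose and 1 fell. Nubpl, which delivers iron-sulfur clusters to complex I, rose by 0.46 (adjusted p = 0.00982), Tmem126a by 0.32 (adjusted p = 0.015) and Tmem242 by 0.27 (adjusted p = 0.0264), and Foxred1 fell by 0.24 on the log2 scale (adjusted p = 0.0357). Of 14 genes of iron-sulfur cluster assembly 1 rose, the chaperone Hspa9 (0.30), and 3 fell, Isca1 (-0.35), Glrx5 (-0.27) and Lyrm4 (-0.48). The share that fell, 21.4%, was about that of all genes. Each call but those of Nubpl, Tmem126a and Isca1 was lost in at least 1 fit without a library: Tmem242 without KO-labelled library 2 or 3 or WT library 1 or 3, Foxred1 without any but WT library 3 and in most other alternatives, Hspa9 without WT library 2, Glrx5 without KO-labelled library 3 or WT library 2 and Lyrm4 without any but WT library 1. Under the chromosome offset Nubpl and Tmem126a kept their calls among the assembly genes and Glrx5 among those of cluster assembly, whereas Tmem242 (adjusted p = 0.965), Foxred1 (0.501), Hspa9 (0.0995), Isca1 (0.484) and Lyrm4 (0.401) lost theirs. With the 5 Mb offset Nubpl (adjusted p = 0.023) and Glrx5 (0.00285) kept their calls and Tmem126a lost its own (0.112). Foxred1 was called lower there (-0.37, adjusted p = 0.00595), and Tmem242, Hspa9, Isca1 and Lyrm4 were not called.

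Among 39 nuclear genes of complexes II to V 7 rose and 4 fell, with a median of 0.11, beside 17 and 1 of the 46 complex I genes and 17.6% and 21.3% of all genes. Under the chromosome offset 7 of the 39 were called higher and 0 lower (17.9% called, median 0.12), beside 6 and 0 (13.0% called, median 0.16) for complex I. The smallest adjusted p were those of Cox5b (0.34) and Uqcrh (0.53), which rose, and of Uqcrfs1 (-0.35) and Sdha (-0.24), which fell and which both lie on chromosome 13 with Ndufs4; of these 4 only Uqcrh was called under the chromosome offset. With the 5 Mb offset Uqcrh was not called (0.30, adjusted p = 0.131). Of 8 supercomplex and inner membrane factors Cox7a2l (0.41, chromosome 17) and Timm21 (0.34) rose and Higd2a (-0.52, chromosome 13) and Oxa1l (-0.23) fell. Without 1 library the calls were lost for Uqcrh (KO-labelled 2 or 3 or WT 2), Sdha (KO-labelled 3), Timm21 (KO-labelled 2 or WT 1 or 2) and Oxa1l (any but WT 3). Under the chromosome offset Cox7a2l (adjusted p = 0.282), Timm21 (0.0992) and Oxa1l (0.0581) lost their calls, and Higd2a, still lower then, was at -0.02 under the 5 Mb offset (adjusted p = 0.833). Timm21 was called higher with the 5 Mb offset (0.32, adjusted p = 0.0334). Of 75 mitochondrial ribosomal protein genes 15 rose and 10 fell, with a median of 0.05. Whether complex I differs from these lists was not tested.

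**Figure D4:**
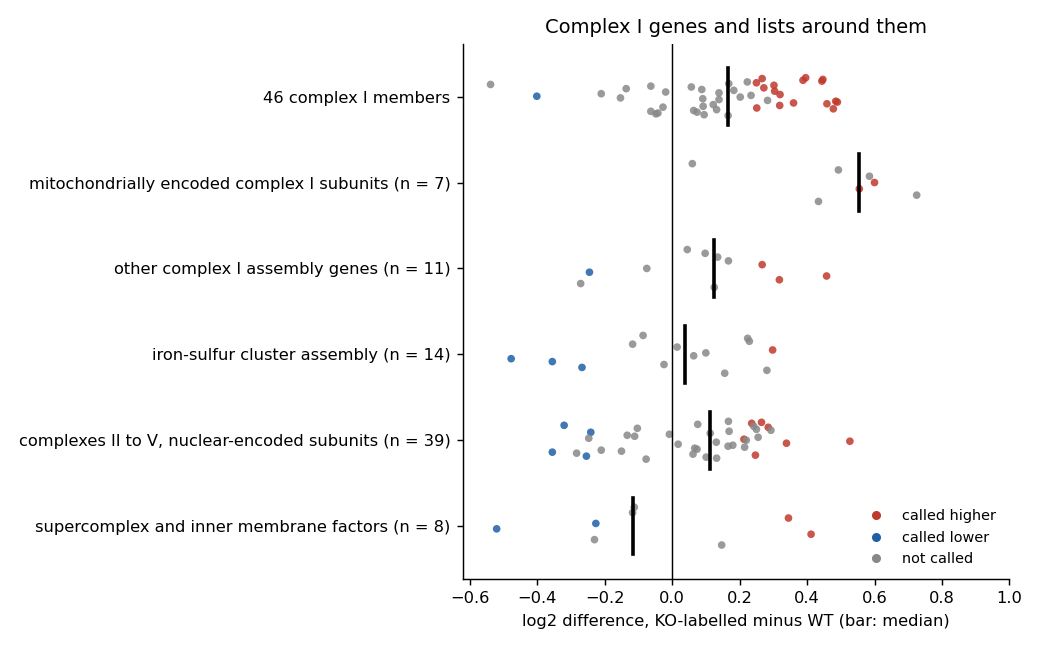
Log2 difference of each gene (horizontal axis) for the 46 complex I genes and 5 lists around them, with a black bar at the median of each list; red and blue mark genes called higher and lower. The medians run from -0.11 for the supercomplex factors to 0.55 for the mitochondrially encoded subunits.

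Of 12 regulators of respiratory gene transcription 2 rose and 2 fell (16.7% each), beside 17.6% and 21.3% of all genes tested. The coactivator Ppargc1a stood at 6.79, 5.72 and 6.86 CPM in KO-labelled libraries and 0.337, 0.174 and 0.309 CPM in WT, with a log2 difference of 4.56 (SE 0.23, adjusted p = 6.85e-07). Its relative Ppargc1b was also higher, by 2.40, at no more than 2.08 CPM in any library. Esrra, the estrogen-related receptor that works with these coactivators, differed by -0.88 and Pprc1, a further coactivator of the family, by -0.40, and both were called lower. These 4 calls held under both offsets. The factors that bind the elements shown are named for that reason: Nrf1 (-0.17, adjusted p = 0.106), Gabpa (0.15, adjusted p = 0.177) and Yy1 (0.03, adjusted p = 0.75) were not called. Relative to its chromosome Nrf1 was called lower (-0.34, adjusted p = 0.00687), and under the 5 Mb offset too (-0.37, adjusted p = 0.004). Tfam, not called without an offset (0.185, adjusted p = 0.0676), was called higher under the chromosome offset (0.27, adjusted p = 0.0172). It was also higher under the 5 Mb offset (0.26, adjusted p = 0.021), as was Gabpb2 (0.27, adjusted p = 0.0104). Relative to the chromosome 3 of the 12 regulators were called higher and 3 lower, beside 14.0% and 19.0% of all genes tested. A link between these regulators and the complex I genes was not tested.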

How the data were processed

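The deposited table holds expected counts per gene, estimated by RSEM from reads trimmed with cutadapt on build GRCm38, per the submitters' processing notes; the aligner, versions and strandedness are not stated in those notes. Per the labels' protocols, polyA RNA was column-extracted, made into libraries with a KAPA kit and sequenced on a NextSeq500. Of the deposited values 17.9% are not whole, among them a count of 25 of the 46 genes. Symbols and positions (1-based) come from GENCODE M21 (GRCm38), which matched 55230 of 55471 identifiers, and promoters from RefSeq (GRCm38.p6).

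Expected counts were rounded, filtered with filterByExpr (minimum count 10, minimum total 15) and scaled with TMM. The 2 groups entered a quasi-likelihood F test of edgeR 4.0.16 (under R 4.3.3; two-sided) whose sole term was genotype, with Benjamini-Hochberg adjustment over 15454 genes; a gene was called at an adjusted p below 0.05. A positive log2 difference means higher in KO-labelled libraries, and its SE derives from the F statistic. CPM values use TMM-scaled library sizes. The common biological coefficient of variation was 11.5%. The offset of a chromosome is the median over its other tested genes, with members and listed pathway genes left out. The fits were tested on simulated counts.

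The 46 genes, the lists and the tests were chosen with earlier results of these data known. Values in every library are given for each called member and for the member highest per length of each role; up to 4 genes with the smallest adjusted p are named per pathway list, with all 7 mitochondrially encoded subunits. Nrf1, Gabpa, Yy1, Tfam and Gabpb2 were named outside this rule, after their values were seen. Alternatives were DESeq2 1.42.0 (its size factors and its Wald test), library size alone, other filters, a replicate block, each library left out, and offsets.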

Additional observations from a re-analysis of the deposited data

How the results depend on the processing

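With 3 libraries a group, and member counts as low as 57, differences smaller than about the intervals given could not be told from 0. The 17 higher and 1 lower calls were 17 and 1 with DESeq2's size factors and with its Wald test, 18 and 1 with library size alone, 18 and 1 with a filter at 1 CPM, and 15 and 2 with no filter. As each library was left out the higher calls ran from 9 to 19, the lower from 0 to 1 (without WT library 3 the 1 was Ndufaf3, not Ndufs4) and the median of the 46 from 0.13 to 0.22. Under the chromosome offset the higher and lower calls were 6 and 0, and under the 5 Mb offset, added after seeing the data, 6 and 0. The 6 calls relative to the chromosome were 2 with no filter, 13 with a filter at 1 CPM and from 2 to 12 as each library was left out. The calls of Ndufs1, Ndufv2, Ndufv3, Ndufa10, Ndufa11, Ndufb10, Ndufs5, Ndufaf1 and Ndufaf7 held in all 12 alternatives without an offset; only Ndufaf1 of these also held under both offsets. No pairing by replicate number was seen: the deviations of same-numbered libraries correlated at 0.022, -0.081 and -0.034. Those of libraries with different numbers correlated at -0.095 to 0.152. With 3 libraries a group these values cannot exclude a pairing. The replicate block gave 16 higher and 1 lower calls, and 5 relative to the chromosome. With that block the calls of Ndufa7, Ndufaf4, Foxred1, Hspa9, Sdha and Oxa1l were lost, and Ndufb3, mt-Nd2, mt-Nd3, mt-Nd4 and mt-Nd4l were called.

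Some log2 differences changed sign. Under the chromosome offset they were -0.0522 for Ndufa2, -0.00573 for Ndufa7, 0.0624 for Ndufa8, 0.13 for Ndufaf2, -0.105 for Ndufb2, -0.00322 for Ndufb3, 0.256 for Ndufs6, 0.0422 for Ndufs7, 0.0504 for Ndufv1, 0.0426 for Sdha, -0.00616 for Tmem242 and -0.268 for mt-Nd1. Under the 5 Mb offset they were -0.00986 for Ndufa2, 0.0216 for Ndufa8, 0.0885 for Ndufaf2, -0.048 for Ndufaf4, 0.0279 for Ndufb11, -0.101 for Ndufb2, -0.00263 for Ndufb3, 0.328 for Ndufs6, 0.0877 for Ndufs7, 0.148 for Ndufv1, -0.0318 for Tmem126b, 0.00947 for Lyrm4, 0.114 for Sdha, -0.13 for Tmem242, 0.123 for Uqcrfs1 and -0.268 for mt-Nd1. A filter at 1 CPM gave 0.00311 for Ndufb11. As each library was left out, the difference ran from -0.051 to 0.219 for Ndufa2, -0.3 to 0.0666 for Ndufaf2, -0.0785 to 0.0866 for Ndufb11, -0.0302 to 0.175 for Ndufb2, -0.106 to 0.0373 for Ndufs6, -0.176 to 0.0528 for Ndufs7, -0.14 to 0.000303 for Timmdc1 and -0.0718 to 0.284 for mt-Nd1. The offsets subtract a positive or negative median by construction; the cause of the other changes was not tested.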
